A study of Mus musculus with 24 samples.

Results

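The C-type clustered protocadherins are 5 cadherin-related cell surface proteins encoded on mouse chromosome 18: Pcdhac1 and Pcdhac2 at the end of the alpha cluster, and Pcdhgc3, Pcdhgc4 and Pcdhgc5 at the end of the gamma cluster. They were chosen by name, as the genes listed under these 5 symbols among the 14922 genes of the deposited table, where they make up 5 of the 56 clustered protocadherins. All 5 were found and kept. Of these, 4 were above 0 log2 CPM in at least 4 libraries and Pcdhac1 was not. RNA was sequenced from primary female neural stem cells (NSCs), dissociated from the cortex of mouse embryos at E14.5 and grown as an adherent layer for fewer than 10 passages, to ask how a point mutation in Smchd1, called MommeD43, changes gene expression. SMCHD1 is a chromatin protein that represses the inactive X chromosome and several gene clusters, the clustered protocadherins among them.

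There were 4 groups. FVB_WT cells were Smchd1+/+ on the FVB/NJ strain, and FVB_MD43 cells were Smchd1 MommeD43/MommeD43 on the same strain, with the allele from a screen with the mutagen ENU. B6GFP_WT and B6GFP_MD43 cells were on C57BL/6J and carried Smchd1 fused to GFP in both groups. In B6GFP_MD43 the MommeD43 change had been made in the fusion by CRISPR-Cas9, together with a silent change in the PAM. The labels gave the B6GFP controls as Smchd1+/+, and the study describes them as homozygous for the fusion. Strain, GFP fusion and the origin of the allele differed together between FVB and B6GFP and cannot be told apart. The unit of replication was the cell line, a culture with its own line number in the labels. There were 5 lines in FVB_WT and 4 in each other group, 17 in all. For means, SD, shares, correlations and the spread test, a line sequenced in 2 batches was entered as the mean of its 2 libraries. The tests of level used the 22 libraries themselves, with the line as a block. The fitted correlation between libraries of a line was 0.083, so they counted as nearly independent there.

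Clustered protocadherins mark the surface of individual neurons and bind the same isoform on a facing cell, which lets a neuron tell its own branches from those of others. The variable isoforms of the alpha, beta and gamma clusters are chosen at random in each neuron through promoters bound by CTCF and cohesin, whereas the C-type isoforms are expressed more uniformly across cells and by other rules. Each alpha or gamma gene has its own large first exon, for the extracellular, membrane and first cytoplasmic part, which is spliced to 3 constant exons shared by the whole cluster. That architecture was read for all 5 members from the GENCODE vM21 exons and the RefSeq gene positions, both on GRCm38.p6. Each had 4 coding exons, and the first held 84.2% to 86.9% of the coding bases. Pcdhac1 (Entrez 353236) spans 37090136 to 37187657 and Pcdhac2 (Entrez 353237) spans 37143678 to 37187663 on the plus strand of chromosome 18. Pcdhgc3 (Entrez 93706, from 37806410), Pcdhgc4 (Entrez 93707, from 37815079) and Pcdhgc5 (Entrez 93708, from 37819546) all end at 37841873 on the same strand. The alpha members share exonic bases with 12 other genes and the gamma members with 25, so 47.2% to 62.1% of the exonic bases of a member were its own. How reads in the constant exons were assigned was not given in the sources used here, and an antisense gene, BC037039, overlaps 1559 exonic bases of Pcdhgc3. Values for each isoform are uncertain to that extent.

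The deposited values are log2 CPM, reads scaled to the size of the library on a log2 scale, with batch already adjusted by the authors. Of 24 libraries, 22 were used, because a column of FVB_MD43 and a column of B6GFP_MD43, both from batch 1, equalled the mean of their group mates in every gene and carried no measurement of their own. Batch 1 held both strains, batch 2 FVB and batch 3 B6GFP. With the deepest library set to 1, relative depth ran from 0.526 to 0.893 in batch 1, from 0.137 to 0.19 in batch 2 and from 0.435 upwards in batch 3. Absolute depth is unknown. All 8 NSC markers were listed, with means over lines from 3.21 log2 CPM for Hes5, the lowest of them, to 11.1 for Vim. All 9 neuronal, 5 of 6 astrocyte and 7 of 7 oligodendrocyte lineage markers were also listed. Against 5 microglial markers only P2ry12 was listed. MommeD43 is a point change that the RNA level of Smchd1 does not check, and the group means of that level ran from 6.96 ± 0.277 log2 CPM in B6GFP_WT (SD, n = 4) to 7.36 ± 0.0704 in FVB_MD43 (n = 4).

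A single line stood apart from the others. B6GFP_MD43 replicate 2, measured in 1 library of batch 3, was the highest of the 17 lines for 8 of 9 neuronal markers, by a median of 2.76 on the log2 scale. Its level of Tubb3, a neuronal tubulin, was 6.48 log2 CPM against at most 3.85 in the other lines, and that of Dcx, a microtubule protein of young neurons, was 5.20 against at most 2.32. It was also the highest line for 5 of 5 endothelial and mural markers listed and 3 of 4 fibroblast markers. All 11 variable alpha isoforms were above the mean of its group mates, by a median of 3.09 on the log2 scale. The main results that rest on this line are given with and without it. In bulk RNA, fewer cells of a type and less RNA per cell cannot be told apart.

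Pcdhgc3 dominated the C-type RNA in every line. Its mean level was 8.88 log2 CPM over 17 lines, above 98.6% of all genes. Pcdhgc4 was at 2.67, Pcdhac2 at 2.48, Pcdhgc5 at 1.12 and Pcdhac1 at -2.31 log2 CPM, the last near the bottom of the table. For a comparison between genes the levels were divided by the length of each gene's own exons. Per kilobase, Pcdhgc3 had a mean level of 7.12 log2 CPM, Pcdhac2 and Pcdhgc4 both 0.88, Pcdhgc5 -1.08 and Pcdhac1 -3.66. Pcdhgc3 exceeded Pcdhac2 by 6.24 ± 0.474 on the log2 scale per kilobase (SD over lines, n = 17), a 75.7-fold difference seen in 17 of 17 lines. Pcdhac2 and Pcdhgc4 did not differ beyond the spread between lines: their difference per kilobase was 0.0047 ± 0.298 on the log2 scale, with Pcdhac2 higher in 10 of 17 lines. With all exons as the length, Pcdhgc4 was the higher of this pair by 0.27 on the log2 scale, in 14 of 17 lines. Pcdhgc4 exceeded Pcdhgc5 by 1.96 ± 0.35 and Pcdhgc5 exceeded Pcdhac1 by 2.58 ± 0.694 on the log2 scale per kilobase, each in 17 of 17 lines.

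**Figure D1:**
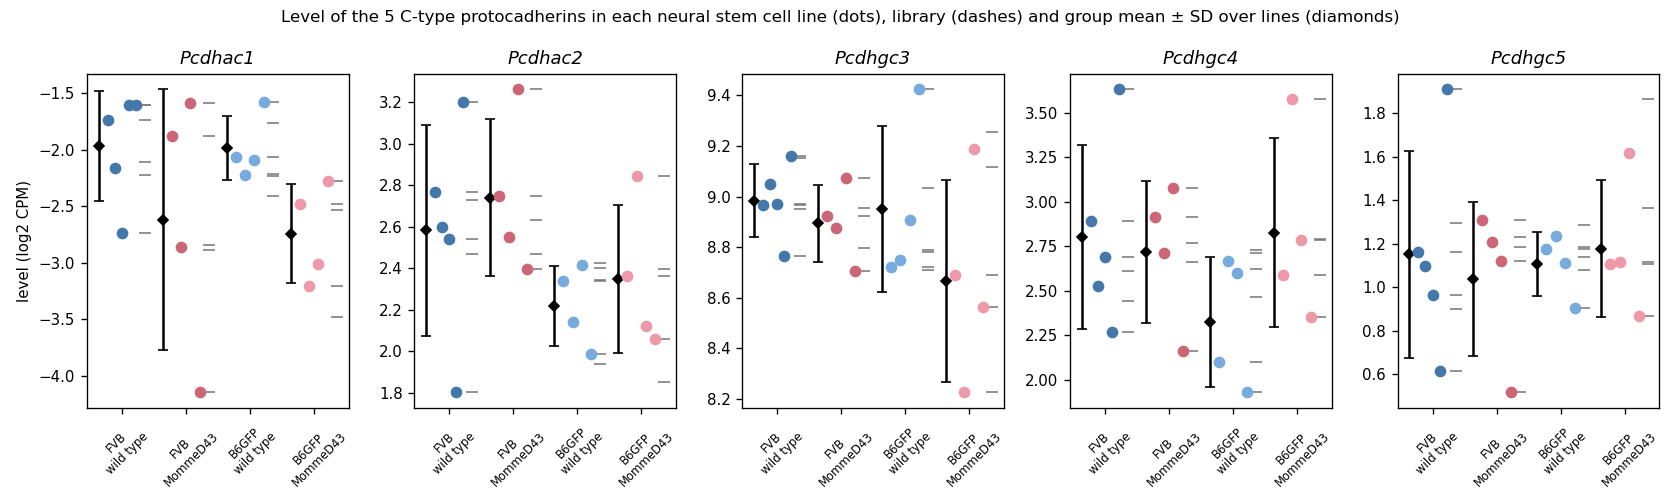
Level of each C-type protocadherin (log2 CPM, vertical axis, a separate scale for each gene) in the 4 groups, with 1 dot per line, a grey dash per library and a diamond with bars for the mean and SD over lines. Pcdhgc3 lies between 8.23 and 9.43 in all lines, and the only member whose MommeD43 and wild-type lines do not overlap is Pcdhac1 in B6GFP.

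Among the 55 clustered protocadherins with a length in the annotation, Pcdhgc3 ranked first per kilobase, ahead of Pcdhgb6 at 2.17 log2 CPM per kilobase. Pcdhac2 ranked 12, Pcdhgc4 13, Pcdhgc5 34 and Pcdhac1 47. The C-type isoforms were thus found over the whole range of the family rather than at 1 end of it. The variable alpha genes took the lowest places, and Pcdhac1 lay among them.

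Pcdhgc3, the isoform known for a role in dendrite branching of cortical neurons, ran from 8.77 to 9.16 log2 CPM in the 5 FVB_WT lines (8.97, 9.05, 8.97, 8.77 and 9.16). The 4 FVB_MD43 lines had 8.92, 8.87, 9.08 and 8.71 log2 CPM. The B6GFP_WT lines had 8.72, 8.75, 8.91 and 9.43, and the B6GFP_MD43 lines 8.69, 8.23, 9.19 and 8.56 log2 CPM. All 4 groups overlapped, and both the highest and the lowest line were B6GFP lines. The lowest was replicate 2 of B6GFP_MD43. The mean level and its SD over lines were 8.98 ± 0.144 log2 CPM for FVB_WT (n = 5), 8.89 ± 0.152 for FVB_MD43 (n = 4) and 8.95 ± 0.328 for B6GFP_WT (n = 4). For B6GFP_MD43 they were 8.67 ± 0.398 (n = 4), or 8.81 ± 0.33 without replicate 2 (n = 3).

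Pcdhgc4, the isoform that neurons of mice need for survival after birth, had 2.89, 2.53, 2.69, 2.27 and 3.63 log2 CPM in the FVB_WT lines and 2.91, 2.71, 3.08 and 2.16 in the FVB_MD43 lines. In B6GFP_WT it had 2.10, 2.67, 2.60 and 1.93, and in B6GFP_MD43 2.59, 3.58, 2.79 and 2.35 log2 CPM. The 2 highest lines were FVB_WT replicate 5 and B6GFP_MD43 replicate 2, and the ranges of all groups overlapped. The mean of B6GFP_MD43 was 2.83 ± 0.531 log2 CPM (SD, n = 4) and 2.57 ± 0.217 without replicate 2 (n = 3), against 2.32 ± 0.364 in B6GFP_WT (n = 4).

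Pcdhac2, the alpha isoform of serotonergic neurons that their axons need to spread out, had 2.77, 2.60, 2.54, 1.80 and 3.20 log2 CPM in the FVB_WT lines and 2.75, 2.55, 3.27 and 2.40 in the FVB_MD43 lines. The B6GFP_WT lines had 2.34, 2.14, 2.41 and 1.99, and the B6GFP_MD43 lines 2.37, 2.84, 2.12 and 2.06 log2 CPM. The 4 groups overlapped, and the 2 lines above 3 were both FVB lines. Per kilobase, Pcdhac2 was above Pcdhgc4 in 4 of 4 FVB_MD43 lines and in 0 of 4 B6GFP_MD43 lines. That contrast was seen in the values and was not tested.

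Pcdhgc5, a gamma isoform that appears late in brain development, ran from 0.52 to 1.91 log2 CPM over the 17 lines, with group means from 1.04 ± 0.356 for FVB_MD43 (SD, n = 4) to 1.18 ± 0.313 for B6GFP_MD43 (n = 4). The lowest line was FVB_MD43 replicate 5 and the highest FVB_WT replicate 5. Pcdhac1, the other alpha C-type isoform, had -1.74, -2.16, -2.74, -1.60 and -1.60 log2 CPM in the FVB_WT lines and -1.87, -2.86, -1.58 and -4.14 in the FVB_MD43 lines. It had -2.06, -2.22, -2.08 and -1.57 in the B6GFP_WT lines and -2.48, -3.21, -3.01 and -2.27 in the B6GFP_MD43 lines. All B6GFP_MD43 lines thus lay below all B6GFP_WT lines, whereas the FVB groups overlapped. The counting error at this level is unknown, and the 2 libraries of a single line, B6GFP_MD43 replicate 3, differed by 0.944 on the log2 scale.

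The first comparison asked whether homozygous MommeD43 changed the C-type isoforms in FVB. No member passed the threshold in limma, an adjusted p below 0.05 over all genes: 0 of 5 were called, and 0 of 5 had an unadjusted p under 0.05. Over all 14922 genes 0.0737% were called, and 6.86% had an unadjusted p under 0.05. Pcdhac1 was lower in FVB_MD43 by a fitted log2 difference of -0.53 (SE 0.295, 95% interval -1.14 to 0.09, adjusted p = 0.826), and it was above the wild-type mean in 2 of 4 lines. The fitted log2 differences of the others were 0.20 for Pcdhgc5 (SE 0.143, adjusted p = 0.889), 0.18 for Pcdhac2 (SE 0.14, adjusted p = 0.902), 0.16 for Pcdhgc4 (SE 0.155, adjusted p = 0.924) and -0.05 for Pcdhgc3 (SE 0.0813, adjusted p = 0.974). For Pcdhgc3 the 95% interval of the fitted change, -0.21 to 0.12 on the log2 scale, corresponds to 0.862 to 1.09 times the wild-type level. Pcdhac1 could lie anywhere between 0.454 and 1.06 times. No member had FVB lines that did not overlap between genotypes (0 of 5, against 1.05% of all genes).

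The FVB values were not alike in both batches. The fitted log2 difference of Pcdhac1 was -0.06 within batch 1 and -1.24 within batch 2, the shallowest batch. Pcdhgc4 differed by 0.26 and -0.22, Pcdhgc5 by 0.32 and -0.29 and Pcdhac2 by 0.17 and -0.02 within batches 1 and 2. Pcdhgc3 was lower in both, by -0.02 and -0.24 on the log2 scale. None of these passed within a batch. Pcdhgc4 and Pcdhgc5 also had opposite signs in the plain mean over lines, -0.09 and -0.11, where each line counts equally. The fitted log2 difference of Pcdhac1 was 0.21 without FVB_MD43 replicate 2, the line with both batches, and -0.35 without replicate 5, the line with the lowest level.

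In B6GFP the same comparison also called 0 of 5 members, and limma called 0% of all genes there, with 2.14% at an unadjusted p under 0.05, none of them a C-type member. Pcdhac1 was again the lowest, at a fitted log2 difference of -0.36 (SE 0.384, 95% interval -1.16 to 0.44, adjusted p = 1). Pcdhgc4 had 0.14 (SE 0.202, interval -0.27 to 0.56), Pcdhac2 -0.08 (SE 0.182), Pcdhgc5 0.0057 (SE 0.187) and Pcdhgc3 0.0024 (SE 0.106), all with an adjusted p of 1. The fit gave replicate 2 of B6GFP_MD43 a weight of 0.158 and replicate 4 of B6GFP_WT 0.101, the lowest of all libraries. In the plain mean over lines the log2 difference of Pcdhgc4 was 0.50, that of Pcdhac1 -0.76 and that of Pcdhgc3 -0.28. Without replicate 2 of B6GFP_MD43 the fitted log2 differences were -0.30 for Pcdhac1, 0.08 for Pcdhgc4, -0.09 for Pcdhac2, -0.03 for Pcdhgc5 and -0.0044 for Pcdhgc3, again all with an adjusted p of 1.

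Pcdhac1 was the member whose B6GFP lines did not overlap, with 0 of 4 B6GFP_MD43 lines above the B6GFP_WT mean. That is 1 of 5 members, and 1.23% of all genes did the same. The gap between the nearest lines, -2.27 and -2.22 log2 CPM, was smaller than the median difference between 2 libraries of 1 line, 0.117 for this gene. Within batch 1 the fitted log2 difference was -0.31, and within batch 3 it was -1.20. In the fit averaged over strains it was -0.44 (SE 0.242, adjusted p = 0.999). That fit called 0 of 5 members against 0.0335% of genes, with 0 of 5 members and 4.62% of genes at an unadjusted p under 0.05. For the difference of the effect between strains limma called 0 of 5 members and 0% of genes, with 0 of 5 members and 3.07% of genes at an unadjusted p under 0.05. For this interaction the fitted values of the members lay between -0.26 and 0.17 on the log2 scale.

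**Figure D2:**
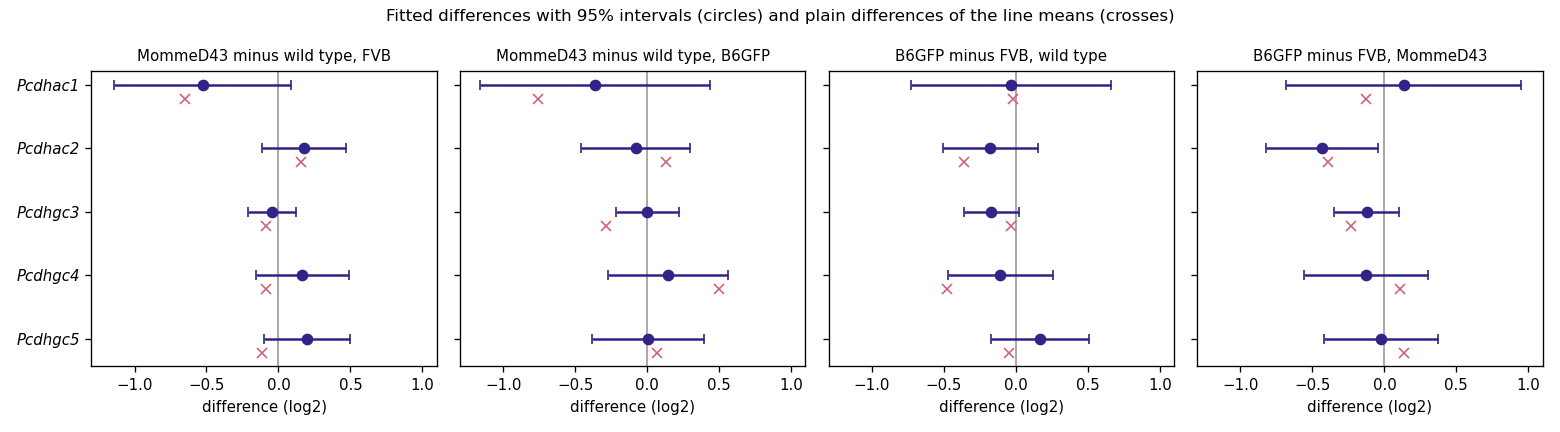
Fitted difference of each C-type protocadherin (log2 scale, horizontal axis) with its 95% interval, shown as circles, for MommeD43 minus wild type in each strain and for B6GFP minus FVB in each genotype, with crosses for the plain difference of the means over lines. The intervals of all MommeD43 comparisons include 0, and the interval that leaves out 0 is that of Pcdhac2 in MommeD43 cells, -0.82 to -0.05.

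The other clustered protocadherins were described in the same way, beside the C-type isoforms. In FVB the median fitted log2 difference was 0.16 over the C-type members (3 above and 2 below 0) and 0.01 over all genes. It was -0.53 over the 11 variable alpha isoforms (2 above, 9 below), -0.45 over the 21 beta isoforms (1 above, 20 below) and 0.02 over the 19 variable gamma isoforms. In B6GFP the medians were 0.0024 for the C-type members, -0.39 for the variable alpha isoforms (0 above, 11 below), -0.14 for the beta isoforms (5 above, 16 below) and -0.02 for the variable gamma isoforms. The variable alpha isoforms were near the floor, and the fit gave B6GFP_MD43 replicate 2 a weight of 0.158. Over lines their summed level was 1.28 ± 0.343 log2 CPM in B6GFP_WT and 1.34 ± 1.38 in B6GFP_MD43 (SD, n = 4 each). It was 3.41 in B6GFP_MD43 replicate 2 and 0.59, 0.75 and 0.61 in replicates 1, 3 and 4. The only clustered protocadherin called in FVB was the variable gamma isoform Pcdhga12, higher in FVB_MD43 by 1.02 on the log2 scale (SE 0.125, adjusted p = 5e-04, group means 1.95 and 2.89 log2 CPM). In the averaged fit Pcdhga12 and Pcdhgb7 were called, both higher, with log2 differences of 0.83 and 0.44. Of 13 genes of promoter choice and cohesin, 12 of DNA and histone methylation and 21 of protocadherin partners and processing, limma called 0 in either strain.

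The share of a cluster's RNA that each member took is a measure within a library. Over the 17 lines Pcdhgc3 made up 78.4% ± 3.41 of the summed CPM of the gamma cluster (SD), Pcdhgc4 1.13% ± 0.479 and Pcdhgc5 0.369% ± 0.0764. Without B6GFP_MD43 replicate 2 these shares were 79.0% ± 2.38, 1.03% ± 0.25 and 0.361% ± 0.0712 (SD, n = 16), so that line alone raised the SD of Pcdhgc4 from 0.25 to 0.479. The share of Pcdhgc3 ran from 68.6% in B6GFP_MD43 replicate 2 to 84.6% in B6GFP_WT replicate 4. In the 4 FVB_MD43 lines it was 77.8%, 78.0%, 78.3% and 78.1%. The SD of this share over those 4 lines was 0.207 percentage points, the smallest of the 4 groups.

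In the alpha cluster Pcdhac2 took 66.2% ± 9.90 of the summed CPM (SD, n = 17) and Pcdhac1 2.67% ± 1.20, or 67.9% ± 7.48 and 2.80% ± 1.12 without B6GFP_MD43 replicate 2 (n = 16). Pcdhac2 had 63.1%, 63.4%, 68.1%, 58.9% and 59.5% in the FVB_WT lines and 70.7%, 75.9%, 80.3% and 76.5% in the FVB_MD43 lines. The FVB groups did not overlap in this share, with means of 62.6% ± 3.71 (SD, n = 5) and 75.8% ± 3.96 (n = 4). An exact two-sided permutation test over lines gave p = 0.00794, the smallest p that 126 splits of these lines allow, and an adjusted p of 0.159 by Benjamini-Hochberg over the 20 tests made of 5 members' shares in 4 comparisons, so it did not pass after correction. A single result at the smallest possible p cannot pass this correction among 20 tests. This test was added after the shares had been seen. In B6GFP the shares of Pcdhac2 were 63.1% ± 7.79 in wild type (n = 4) and 64.2% ± 16.3 in MommeD43 (n = 4), or 72.2% ± 2.67 without replicate 2 (n = 3), whose own share was 40.0%. The levels of Pcdhac2 overlapped in both strains. The summed level of the variable alpha isoforms, the rest of the denominator, was 1.72 ± 0.568 log2 CPM in FVB_WT and 0.94 ± 0.302 in FVB_MD43. None of the 11 variable alpha isoforms was above 0 log2 CPM in at least 4 libraries, and without them Pcdhac2 and Pcdhac1 are the whole denominator.

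**Figure D3:**
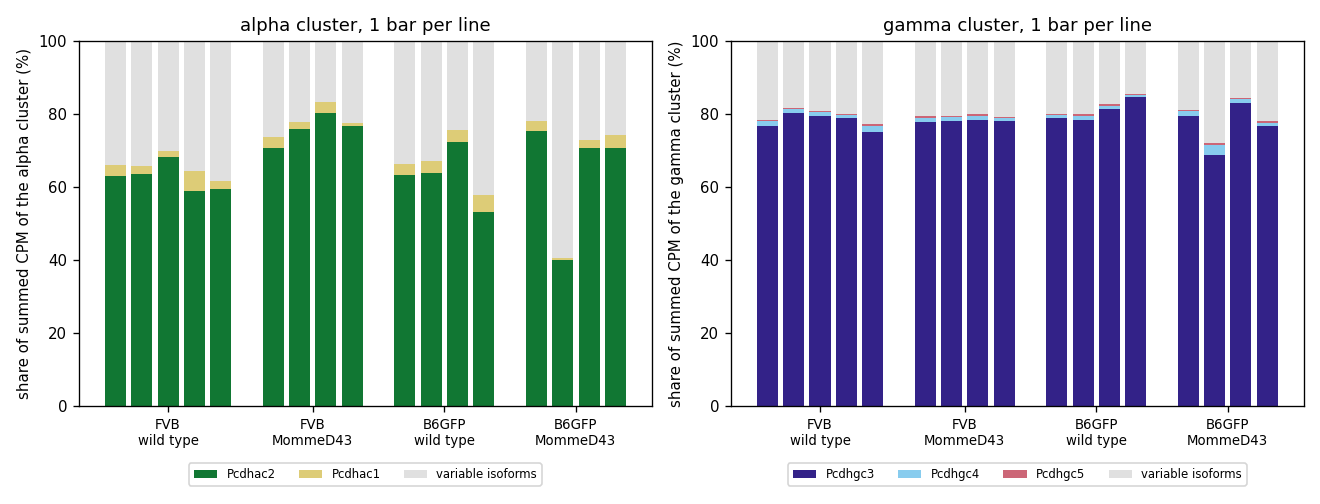
Share of the summed CPM (%, vertical axis) taken by each C-type isoform and by the variable isoforms together, in the alpha cluster (left) and the gamma cluster (right), with 1 bar per line. Pcdhac2 takes 70.7% to 80.3% in FVB_MD43 lines and 58.9% to 68.1% in FVB_WT lines, and B6GFP_MD43 replicate 2 has the lowest bars for Pcdhac2 and Pcdhgc3.

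Between the strains no C-type isoform passed the threshold, in either genotype. In wild type limma called 0 of 5 members and 41.1% of all genes between B6GFP and FVB, and 0 of 5 members and 48.7% of genes had an unadjusted p under 0.05. The fitted log2 differences of the members ran from -0.18 to 0.17. Pcdhgc3 had -0.17 (SE 0.0922, adjusted p = 0.15) and Pcdhac2 -0.18 (SE 0.159, adjusted p = 0.394). In MommeD43 cells 0 of 5 members and 34.4% of all genes were called, and 1 of 5 and 43.9% had an unadjusted p under 0.05. Pcdhac2 was nearest to the threshold, with a fitted log2 difference of -0.43 (SE 0.187, 95% interval -0.82 to -0.05, adjusted p = 0.0771), and 1 of 4 B6GFP_MD43 lines was above the FVB_MD43 mean. That line was replicate 2, without which the log2 difference of Pcdhac2 was -0.44 (adjusted p = 0.07). Within batch 1, the only batch with both strains, it was -0.58 and passed (adjusted p = 0.0316). The MommeD43 cells in that batch were only FVB_MD43 replicates 1 and 2 and B6GFP_MD43 replicates 1 and 3. Pcdhgc3 had a fitted log2 difference of -0.12 in MommeD43 cells (SE 0.108, adjusted p = 0.412) and -0.25 without B6GFP_MD43 replicate 3, where it passed (adjusted p = 0.00279). With 1 line left out, 4645 to 8179 of 14922 genes were called in this comparison. No member had lines that did not overlap between strains, against 15.9% of all genes in wild type and 21.3% in MommeD43 cells.

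Beside these, 2 of 11 variable alpha, 6 of 19 variable gamma and 6 of 21 beta isoforms were called in wild type, each list at a lower share than the 41.1% of all genes. The smallest p of these was that of Pcdhgb8, lower in B6GFP_WT at a fitted log2 difference of -3.19 (SE 0.13, adjusted p = 6.91e-14). In MommeD43 cells 1, 3 and 5 isoforms of these lists were called, again below the 34.4% of all genes. Of the genes of promoter choice and cohesin, 9 of 13 were called in wild type and 7 of 13 in MommeD43 cells, among them the cohesin subunit Smc1a, higher in B6GFP by 0.22 on the log2 scale in both. Of the methylation genes 5 of 12 and 4 of 12 were called, and of the protocadherin partners and processing genes 9 of 21 and 10 of 21. All genes were called at 41.1% in wild type and 34.4% in MommeD43 cells. The shares called were 69.2% and 53.8% for promoter choice and cohesin, 41.7% and 33.3% for methylation and 42.9% and 47.6% for the partners, so that of the methylation genes lay near the background in both genotypes and that of the partners in wild type. Nckap1, a subunit of the actin-regulating complex that protocadherins bind, was higher in B6GFP_WT by a log2 difference of 0.53 (SE 0.0457, adjusted p = 1.27e-08). Markers of other cell types moved with strain as well. All 5 astrocyte markers were lower in B6GFP in both genotypes, with median log2 differences of -1.70 and -2.14, and 4 of 7 and 5 of 7 oligodendrocyte lineage markers were called. Their part in the values of the C-type isoforms was not tested.

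The lines of a group differed more for Pcdhgc3 than for most genes of its level. Its pooled SD over lines within groups was 0.27 on the log2 scale, and 95.5% of the 288 genes within 0.5 log2 of its level had a smaller one, with a median of 0.134. Without B6GFP_MD43 replicate 2 the SD of Pcdhgc3 was 0.24 and the share 92.4%. Pcdhgc4 had an SD of 0.463 (80.1% of genes of like level were lower) and Pcdhac2 0.387 (68.9%). Pcdhgc5 at 0.355 (41.0%) and Pcdhac1 at 0.667 (39.7%) lay somewhat below the middle of the genes of like level. Without B6GFP_MD43 replicate 2 the shares were 80.5% for Pcdhgc4, 73.0% for Pcdhac2, 50.5% for Pcdhgc5 and 51.3% for Pcdhac1. Pcdhgc5 and Pcdhac1 then lay near the middle. These ranks are descriptions. Repeats of 5 lines in 2 batches gave an SD for 1 library of 0.125 for Pcdhgc3, 0.11 for Pcdhgc4, 0.236 for Pcdhac2, 0.205 for Pcdhgc5 and 0.363 for Pcdhac1, below the pooled SD over lines of the same gene. In B6GFP_WT alone the SD over lines was smaller than that for Pcdhac1 (0.284), Pcdhac2 (0.193) and Pcdhgc5 (0.145). Lines repeated across batches were also what the authors used to adjust for batch.

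**Figure D4:**
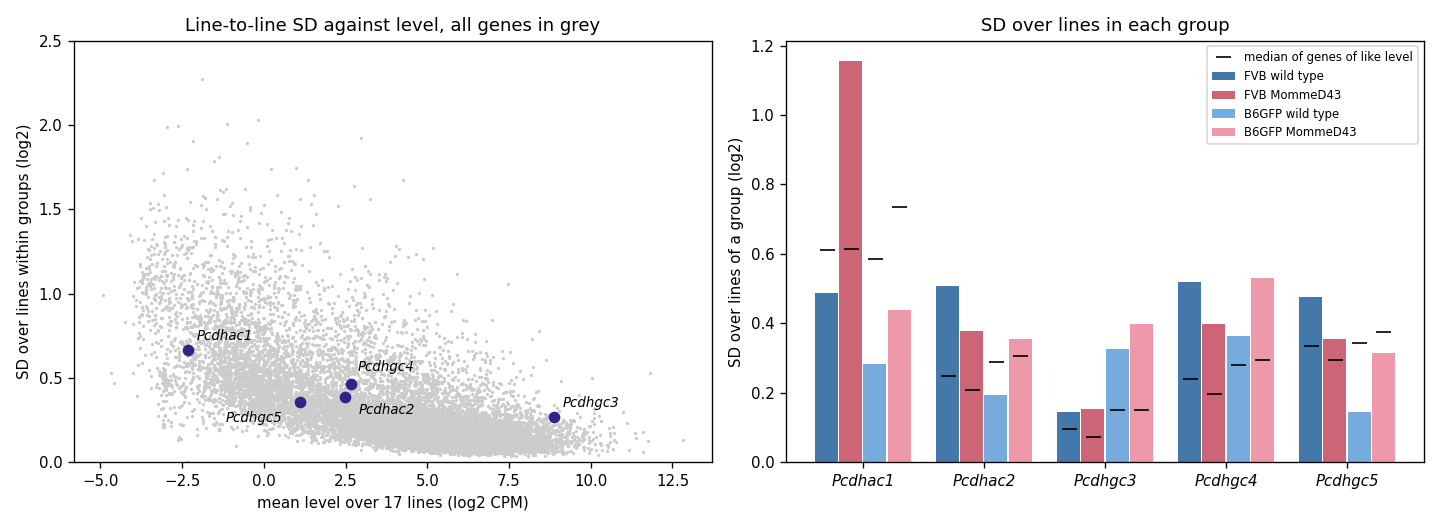
Left, pooled SD over the lines of a group (log2 scale, vertical axis) against mean level (log2 CPM, horizontal axis) for all genes in grey and the 5 C-type protocadherins as named points. Right, SD over lines of each member in each group, with a dash for the median of genes of like level; Pcdhgc3 lies above the dash in all 4 groups, and Pcdhac1 is highest in FVB MommeD43 at 1.16.

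The spread over lines was compared between groups with limma on the absolute deviations of the lines from their group mean. No member's spread was called between the FVB genotypes (0 of 5, against 0.0469% of all genes), and 1 of 5 had an unadjusted p under 0.05, against 3.61% of genes. This was Pcdhac1, whose mean deviation was larger in FVB_MD43 by 0.59 on the log2 scale (SE 0.287, adjusted p = 1), with FVB_MD43 lines from -4.14 to -1.58 log2 CPM. Without FVB_MD43 replicate 5, the lowest of them, the difference of Pcdhac1 was 0.19. That line came from 1 library of batch 2 with the lowest relative depth, 0.137, and its Pcdhac1 level was 0.057 CPM. In B6GFP 0 of 5 were called, against 4.28% of all genes, and 0 of 5 had an unadjusted p under 0.05, against 19.7%. Between the strains 0 of 5 members and 11.2% of all genes were called, and 1 of 5 and 28.9% had an unadjusted p under 0.05. The 1 member was Pcdhgc3, with a mean deviation larger in B6GFP by 0.18 on the log2 scale (SE 0.0798, adjusted p = 0.113). Its SD was 0.144 and 0.152 in the FVB groups and 0.328 and 0.398 in the B6GFP groups. Leaving out 1 of B6GFP_WT replicates 1, 2 or 3 or B6GFP_MD43 replicate 1 brought Pcdhgc3 past the threshold, at differences of 0.21, 0.21, 0.23 and 0.24. With 1 line left out, 292 to 3522 of 14922 genes were called in this comparison. The lines farthest from their group means stayed in these runs of Pcdhgc3: B6GFP_WT replicate 4 (0.48) and B6GFP_MD43 replicates 2 (-0.44) and 3 (0.52). Pcdhac1 went the other way, with a difference of -0.40 (SE 0.208, adjusted p = 0.186).

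Some pairs of members varied together over lines, once each line was set against the mean of its group. In 3 of 10 pairs r was 0.61 or more, and in the other 7 it lay between -0.07 and 0.41. These correlations are descriptions over 17 lines, which share libraries, depth and the constant exons of a cluster. Pcdhac2 and Pcdhgc4, from different clusters, had a Pearson r of 0.83 and a Spearman rho of 0.79, with r of 0.89 over the 9 FVB lines and 0.77 over the 8 B6GFP lines. Without B6GFP_MD43 replicate 2 the r of this pair was 0.79 over all lines and 0.38 over the 7 remaining B6GFP lines. Pcdhgc4 and Pcdhgc5 had an r of 0.72, or 0.87 without that line. The B6GFP part of the relation between Pcdhac2 and Pcdhgc4 therefore leaned on 1 line. The r over FVB lines alone was not recomputed with an FVB line left out. The largest FVB deviations of Pcdhac2 were in FVB_WT replicates 4 (-0.78) and 5 (0.62) and FVB_MD43 replicates 4 (0.52) and 5 (-0.34). Each of these lines came from 1 library of batch 2, the shallowest, at a relative depth of 0.137 to 0.165. Without FVB_WT replicates 4 and 5 the r over all other lines was 0.77 for Pcdhac2 and Pcdhgc4. For Pcdhac2 and Pcdhgc5 it was 0.24, against 0.61 with them. Pcdhac1 had an r of -0.64 with Pcdhac2, -0.87 with Pcdhgc4 and -0.69 with Pcdhgc5 over the 8 B6GFP lines, against 0.42, 0.59 and 0.51 over the 9 FVB lines. Without B6GFP_MD43 replicate 2 these B6GFP values were -0.34, -0.81 and -0.94. FVB_WT replicate 5 and FVB_MD43 replicates 1 and 4 were above their group means for 5 of 5 members. FVB_WT replicate 3 and FVB_MD43 replicate 5 were below for 5 of 5.

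**Figure D5:**
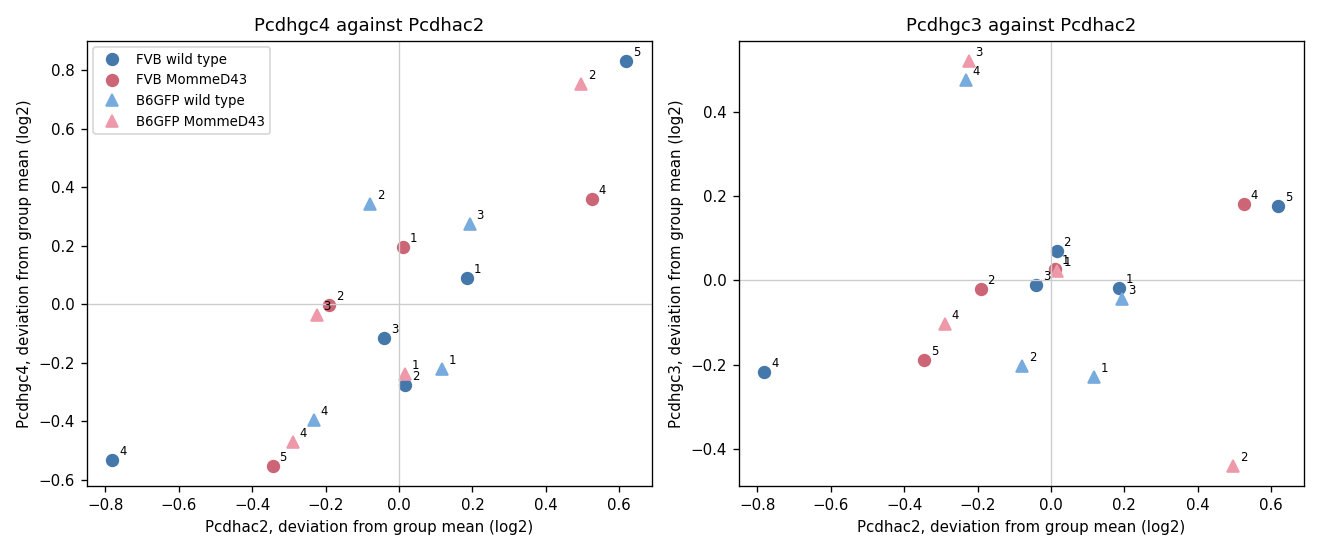
Deviation of each line from its group mean (log2 scale, both axes) for pairs of C-type protocadherins, with 1 point per line coloured by group and numbered by replicate. Pcdhac2 and Pcdhgc4 deviate together in FVB (r = 0.89), with an r of 0.77 in B6GFP that is 0.38 without B6GFP MommeD43 replicate 2, and Pcdhac2 and Pcdhgc3 deviate together in FVB (r = 0.93) with an r of -0.70 in B6GFP, or -0.49 without that line. The largest FVB deviations of each gene are those of replicates 4 and 5 of both genotypes, each from 1 library of batch 2.

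The r of Pcdhgc3 with Pcdhac2 and with Pcdhgc4 had opposite signs in the strains, and with Pcdhac1 and Pcdhgc5 the same sign. With Pcdhac2 its r was 0.93 over the 9 FVB lines and -0.70 over the 8 B6GFP lines, or -0.49 over 7 without B6GFP_MD43 replicate 2. With Pcdhgc4 its r was 0.86 in FVB and -0.53 in B6GFP, or -0.16 without that line. With Pcdhac1 its r was 0.55 in FVB and 0.36 in B6GFP, or 0.032 without that line, and with Pcdhgc5 0.83 and 0.27, or 0.25 without it. The pooled values for Pcdhac2 and Pcdhgc4 were 0.0035 and -0.07. The largest FVB deviations of Pcdhgc3 were again in single libraries of batch 2: FVB_WT replicates 4 (-0.22) and 5 (0.18) and FVB_MD43 replicates 4 (0.18) and 5 (-0.19). Whether the relation differs between strains was not tested.

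The genes whose lines deviated most like a member were looked up among all genes. For Pcdhgc3 these were Add3, an adducin of the membrane skeleton (r = 0.97), Fuca1, a lysosomal fucosidase (r = 0.96), and Spats2l (r = 0.96), over 17 lines. For Pcdhac2 they were Atcay (r = 0.95), Slc45a1, a sugar transporter (r = 0.95), and Cacna1d, a voltage-gated calcium channel subunit (r = 0.95). For Pcdhgc4 they were Gpd1 (r = 0.96), Maneal (r = 0.94) and Dcaf12l1 (r = 0.93), and for Pcdhgc5 Mab21l3 (r = 0.88), Erich3 (r = 0.85) and Arhgap24 (r = 0.85). No other C-type member was among the 3 nearest genes of any member: the closest, Pcdhac2 for Pcdhgc4, ranked 95. The nearest genes were picked as the highest r among 14922 genes, so their r are descriptions. They were not looked up again without B6GFP_MD43 replicate 2.

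Markers of cell types moved with the members over the same lines. The deviations of Pcdhgc3 followed the summed level of the 8 NSC markers with an r of 0.77, and of 0.87 without B6GFP_MD43 replicate 2, and that of the 5 astrocyte markers with 0.71 and 0.78. With the mean log2 level of the same lists, which weighs each marker equally, its r was 0.55 and 0.57 for the NSC markers and 0.80 and 0.85 for the astrocyte markers. For the 9 neuronal markers its r was -0.28 and 0.26 with the summed level, and -0.79 and -0.78 with the mean log2 level. The relation to neuronal markers thus depended on the measure. Most of their summed level was Map2, with a mean of 9.76 log2 CPM against 4.84 for Syt1, the next highest. Pcdhgc4 had an r of 0.75 with the summed neuronal markers and 0.65 without B6GFP_MD43 replicate 2, but 0.48 and 0.08 with their mean log2 level. Pcdhac2 followed the summed level of the 4 fibroblast markers, with an r of 0.83 in both cases. The fibroblast markers Col1a1, Col1a2, Col3a1 and Dcn had mean levels over lines below 0 log2 CPM. The part of these cell types in the levels of the C-type isoforms was not tested.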

How the data were processed

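Poly(A) RNA of 24 libraries was prepared from 100 ng of total RNA per library. The authors trimmed reads with Trim Galore 0.4.4, mapped them with HISAT2 2.0.5 to GRCm38.p6 and used limma 3.40.6. How reads were counted was not given in the sources used here. Values of 14922 genes were deposited as log2 CPM, adjusted for batch by the authors, since refitting group and batch to all columns left no batch term. No counts were used, so no counting interval is given.

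The models, run in limma 3.58.1 (R 4.3.3), had terms for group and batch, array quality weights, the line as a block and a mean-variance trend. Adjusted p-values are Benjamini-Hochberg values over all genes, and 0.05 was the threshold. Group means and SD are over lines, and fitted differences weight libraries unequally. Nothing in the labels beyond the line number gives the source animal, so p-values speak of cultures and not of animals. In the tests of level they rest on the spread between 22 libraries, with a correlation of 0.083 between libraries of a line. Spread was tested by limma on absolute deviations of line means. Gene positions came from RefSeq, and exons and lengths from GENCODE vM21, both on GRCm38.p6 and matched by symbol. The fits of level and of spread were tested on simulated data, and the other steps were not. Genes of a list were named if called, up to 3 per list and comparison in order of p, and for each member above 0 log2 CPM the 3 genes with the highest r. Members, lists and tests were chosen with earlier results of these data known, and the tests of shares after the shares were seen. Marker lists for 7 cell types were taken from textbook knowledge. Alternatives were other weights, units, scalings, filters, blocks and batches, and leaving out each line.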

Additional observations from a re-analysis of the deposited data

Results flagged for a closer look

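A check of the lowest and highest line in each group of levels and shares (48 checks, of which chance marks about 1 in 20 groups) found 5 values far from those of their group mates, all in shares of a cluster and none in a level. In B6GFP_MD43, replicate 2 had the lowest share of Pcdhac2 in the alpha cluster, 40.0% of the summed CPM, and with Pcdhac1 added 40.6%, against 70.7% to 75.3% for Pcdhac2 in its group mates. The same line had the highest share of Pcdhgc4 in the gamma cluster, 2.73%. Pcdhac1 had its highest alpha share in FVB_WT in replicate 4, at 5.56%, and in B6GFP_WT also in replicate 4, at 4.51%. The values of B6GFP_MD43 replicate 2 come from 1 library.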

How the results depend on the processing

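Of 1261 member values recomputed under 34 other settings, 17 of which left out 1 line, 1124 had the same sign as reported, 137 the opposite sign, and 21 passed the threshold. No member was called for MommeD43 in FVB or B6GFP under any setting. The count of members called became 1 for the averaged effect and 5 for the strain comparison in MommeD43 cells with all 24 columns, since a column equal to the mean of its group has almost no residual by construction. Between strains it became 1 in wild type with a replicate block (Pcdhgc3, -0.22, adjusted p = 0.0291), and 1 in MommeD43 cells with a replicate block (Pcdhac2, -0.65, adjusted p = 0.0152), without a batch term (-0.50), within batch 1 (-0.58) and, chosen after seeing the data, without the libraries of batch 2 (-0.44). The cause was not tested. Same-numbered lines did not deviate together (r from -0.48 to 0.14), so numbers do not pair the lines, and the block changed no other call. In the main fits 41.1% of all genes were called between strains in wild type and 34.4% in MommeD43 cells. These shares do not serve as background for the other settings, because the number of genes called moved with the setting. For MommeD43 in FVB it was 510 with all 24 columns and 137 with a replicate block, against 11 in the main fit. Leaving out 1 line gave 0 to 1 members called in the strain comparison in MommeD43 cells (5 of 17 lines), against 4645 to 8179 of 14922 genes. In wild type it gave 0 to 1 (1 of 17, Pcdhgc3 without B6GFP_WT replicate 3, -0.24), against 4014 to 6400 genes. In the spread between strains it gave 0 to 1 (4 of 17), against 292 to 3522 genes. In the other comparisons it gave 0. Pcdhac2 in MommeD43 cells passed without FVB_WT replicate 5 (-0.47), FVB_MD43 replicate 2 (-0.55), B6GFP_WT replicate 2 (-0.64) or B6GFP_MD43 replicate 1 (-0.77).

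Small fitted values turned sign. For MommeD43 in FVB, Pcdhac2 was -0.023 within batch 2. Pcdhgc4 was -0.060 without weights, -0.086 on line means and -0.22 within batch 2, and Pcdhgc5 was -0.091, -0.11 and -0.29. In B6GFP, Pcdhac2 was 0.089 without weights, 0.13 on line means and 0.31 within batch 3. Pcdhgc3 was -0.20, -0.28 and, with all 24 columns, -0.026. It was -0.0046 on log2(CPM + 1), -0.015 with libraries centred and -0.0054 with the B6GFP number as block. Pcdhgc5 was -0.0033 and -0.0025 on the first 2 of these. Leaving out 1 line, Pcdhac1 in FVB ran from -0.77 to 0.21, and in B6GFP Pcdhac2 from -0.40 to 0.029, Pcdhgc3 from -0.12 to 0.25, Pcdhgc4 from -0.025 to 0.35 and Pcdhgc5 from -0.10 to 0.21. In the strain comparison in MommeD43 cells Pcdhgc3 ran from -0.25 to 0.15 and Pcdhac2 from -0.77 to -0.31. Without variable isoforms at low values Pcdhac2 took 96.1% of the alpha cluster, Pcdhac1 3.91% and both 100%.

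Absolute depth is unknown and counting error was not measured, which limits what can be said of low genes such as Pcdhac1.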
